A study of Mus musculus with 3 samples.

Results

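Alpha and beta tubulin genes encode the subunits of microtubules, and 8 of them are described here in mouse hippocampal nuclei: Tuba1a, Tuba1b and Tuba4a of the alpha family, and Tubb2a, Tubb2b, Tubb3, Tubb4a and Tubb5 of the beta family. They were chosen by gene symbol, because tubulin is a substrate of the deacetylase HDAC6, and all 8 of the named genes were found among the 32285 genes of the deposited matrices, each with UMIs (unique molecular identifiers, each standing for a captured RNA molecule) in all 3 libraries. By its title, the study is about inhibiting HDAC6 where doxorubicin has impaired cognition. It has 1 library for each of 3 groups of mice: doxorubicin plus ACY-1083 (an HDAC6 inhibitor given with the chemotherapy drug), doxorubicin alone (an anthracycline that poisons topoisomerase II), and control (no treatment). Each library holds nuclei of frozen hippocampi from 4 mice combined before nuclei were isolated with Triton X-100 and sequenced with the 10x single cell 3′ version 3 chemistry. The labels give no dose, strain, sex or age. Each group is 1 pooled library without replicates. Groups are therefore compared by counts and ratios alone, without p-values, and the intervals (exact, 95%) cover counting error only.

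Microtubules are built from heterodimers of an alpha and a beta tubulin, and the brain makes several isotypes of each. Tuba1a is the main alpha tubulin of developing neurons, Tuba1b is widely made, and Tuba4a is an alpha tubulin of mature cells. Tubb3 is used as a marker of neurons, Tubb4a is known for its abundance in myelinating oligodendrocytes and its gene is mutated in human leukodystrophy, Tubb2a and Tubb2b are closely related brain isotypes, and Tubb5 is broadly made. HDAC6 and SIRT2 remove the acetyl group that ATAT1 adds to a lysine on the luminal side of alpha tubulin. The inhibited enzyme thus acts on the tubulin protein, whereas the measurements here are of RNA.

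That lysine is encoded by codon 40 of each of the 3 alpha tubulin genes described here. It is shown here because it is the site on which the inhibited enzyme acts. In the coding sequences of GENCODE vM21 transcripts, codons 35 to 45 read as follows from 5′ to 3′, with codon 40 in capitals.
Tuba1a: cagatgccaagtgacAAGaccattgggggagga
Tuba1b: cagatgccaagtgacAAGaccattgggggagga
Tuba4a: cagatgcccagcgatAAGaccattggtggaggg
Tuba1a and Tuba1b were identical over these codons, and each of the 3 genes used AAG at codon 40.

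Tubulin mRNA is also controlled by the tubulin protein: TTC5 binds the first residues of a nascent tubulin chain and starts decay of the mRNA when free tubulin is plentiful. Codons 1 to 10 of 4 of the genes are shown for that reason, with codons 2 to 4, which encode the residues after the initiator, in capitals.
Tuba1a: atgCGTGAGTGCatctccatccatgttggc
Tuba4a: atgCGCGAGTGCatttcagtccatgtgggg
Tubb2a: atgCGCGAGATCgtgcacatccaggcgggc
Tubb3: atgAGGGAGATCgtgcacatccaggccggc

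On GRCm38, Tuba1a spans 15:98949837-98953703 and Tuba1b 15:98931425-98934565, both on the minus strand. Tuba4a lies at 1:75214228-75219865, Tubb2a at 13:34074274-34078007 and Tubb2b at 13:34126748-34130466, all on the minus strand. Tubb3 lies at 8:123411424-123422015 on the plus strand, and Tubb4a at 17:57080066-57087782 and Tubb5 at 17:35833921-35838306 on the minus strand. All 8 are annotated as protein-coding. The gene span outside exons, called intron length below, was 1.06 to 2.12 kb for 6 of the genes, but 5.49 kb for Tubb4a and 8.72 kb for Tubb3. The coding sequences of Tuba1a and Tuba1b were 98.3% identical and those of Tubb2a and Tubb2b 96.5%. Of the 91-base windows of the coding sequence, 81.4% in Tuba1a and 92.3% in Tuba1b occurred also in another gene or pseudogene, and 6.2% and 21.9% of the windows in the last 300 bases of the transcript, where the 3′ reads fall, so the split of counts between these 2 genes is uncertain. For Tubb2a and Tubb2b the shares were 47.6% and 49.2% in the coding sequence and 0 in the last 300 bases, and the other 4 genes shared no window.

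The libraries held 12192, 12221 and 10909 barcodes (doxorubicin plus ACY-1083, doxorubicin, control), with a median of 3912.5, 1485 and 1487 UMIs per barcode, and shared 29 to 46 barcodes pairwise. After removal of doublets and poor barcodes, 11846, 11647 and 10455 nuclei were kept. Clusters, made without tubulin genes among the variable genes, were named by likeness to marker lists, and 8 classes with at least 100 nuclei in every library were compared; choroid plexus epithelium and microglia were too few and are described only. Nuclei of the doxorubicin plus ACY-1083 library lay, all but at most 2 nuclei of a class, in clusters apart from the other libraries in each compared class. They held cluster 4 for dentate gyrus granule neurons (26 and 24 for the other libraries), 5 for CA1 pyramidal neurons (25), 2 for CA2/CA3 pyramidal neurons (21), 14 for subicular or cortical excitatory neurons (18), 10 for GABAergic neurons (28), 1 for oligodendrocytes (20), 7 for oligodendrocyte precursor cells (22), and 3 and 19 for astrocytes (23 and 31). Granule cluster 24 held 406 nuclei of the doxorubicin library and 34 of control.

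Tubb2a and Tuba1a had the highest whole-library levels. Per kb of exon, Tubb2a had 46, 121.9 and 112.9 CPM (UMIs of the gene scaled to a common library total) and Tuba1a 45.4, 116.1 and 106.8 CPM in the doxorubicin plus ACY-1083, doxorubicin and control libraries. The 3′ chemistry counts molecules at 1 end, so UMIs need not grow with exon length and the order of genes depends on the scale. Without division by length Tuba1a was above Tubb2a, at 81.9, 209 and 193 CPM against 74.0, 196 and 182 CPM. Tuba1b had 19.2, 53.6 and 46.6 CPM per kb, next after these in the doxorubicin and control libraries. Tubb5 had 8.05, 20.8 and 18.5 CPM per kb, and Tuba4a 6.76, 17.4 and 17.6. Tubb3 (19.9, 18.2 and 19.1 CPM per kb) and Tubb4a (28.9, 16.0 and 15) were the members whose level per kb was highest in the doxorubicin plus ACY-1083 library. Tubb2b was lowest in every library, with 5.79, 14.5 and 13.6 CPM per kb. These sums hold every kept nucleus, named or not, and fewer cells of a type and less RNA per cell cannot be told apart in them. Named classes made up unlike shares of the libraries. In the same order, oligodendrocytes were 14.6%, 7.83% and 6.92% of the kept nuclei, and subicular or cortical excitatory neurons 3.47%, 9.71% and 11.7%. The latter shares depend on the naming of clusters. Among its top genes, cluster 18 (doxorubicin and control) shared Tshz2, Vwc2l, Sgcz and Gpc6 with cluster 13 and Tshz2 and Unc13c with cluster 8. Those clusters of the doxorubicin plus ACY-1083 library, of 290 and 444 nuclei, stayed unnamed. Named cluster 14 of that library shared Tshz2 and Vwc2l, so the class may not hold the same cells in every library.

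Counted per nucleus, Tuba1a had nearly the same number of UMIs in every class, neurons and glia alike. It had 370 to 467 UMIs per 1000 nuclei over the 8 classes of the doxorubicin plus ACY-1083 library, 326 to 421 in the doxorubicin library and 291 to 400 in the control library. The highest class was thus 1.26, 1.29 and 1.37 times the lowest. Among 3537, 3528 and 3532 genes with at least 1000 UMIs in the doxorubicin and control libraries and UMIs in every class, the median gene differed 7.77-, 5.71- and 5.68-fold between its highest and lowest class. Only 0.0848%, 0.567% and 0.878% of them varied less than Tuba1a.

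Tubb5 was similarly even in the doxorubicin and control libraries. It had 101 to 136 UMIs per 1000 nuclei in the doxorubicin library and 89.8 to 126 in control, a spread of 1.34- and 1.40-fold. With doxorubicin plus ACY-1083 it ranged from 93.9 in oligodendrocytes to 183 in CA2/CA3 pyramidal neurons, 1.95-fold. The spread of Tuba1b over classes was 1.38-, 1.68- and 2.04-fold in the doxorubicin plus ACY-1083, doxorubicin and control libraries.

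Tubb2a and Tuba4a varied more, by 2.06- to 3.53-fold. Tubb2a was highest in CA2/CA3 pyramidal neurons, at 541, 453 and 408 UMIs per 1000 nuclei in the 3 libraries, and had 216, 219 and 196 in oligodendrocytes, with intervals that did not overlap. Astrocytes held 375, 332 and 286, within the range of the neurons. Tuba4a was also highest in CA2/CA3 pyramidal neurons among the compared classes, at 206, 172 and 141 UMIs per 1000 nuclei. Its lowest value was 85.2 in subicular or cortical excitatory neurons with doxorubicin plus ACY-1083, and 76.9 and 40 in oligodendrocyte precursor cells with doxorubicin and in control, the last resting on 10 UMIs.

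Tubb2b stood out in astrocytes. It had 152 (128 to 178), 138 (117 to 161) and 129 (107 to 153) UMIs per 1000 astrocyte nuclei, against 38.9 to 77.4, 38.0 to 55.2 and 24 to 49.0 in the other 7 classes of the same libraries. No interval of another compared class reached that of astrocytes. Tubb4a stood out in oligodendrocytes, with 943 (898 to 990), 162 (137 to 191) and 157.5 (130 to 189) UMIs per 1000 nuclei, against 95.8 to 395, 41.4 to 66.4 and 33.3 to 73.0 in the other classes. These contrasts were present in each library, and the cells of a class in a library share that library, so they are descriptions.

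**Figure D1:**
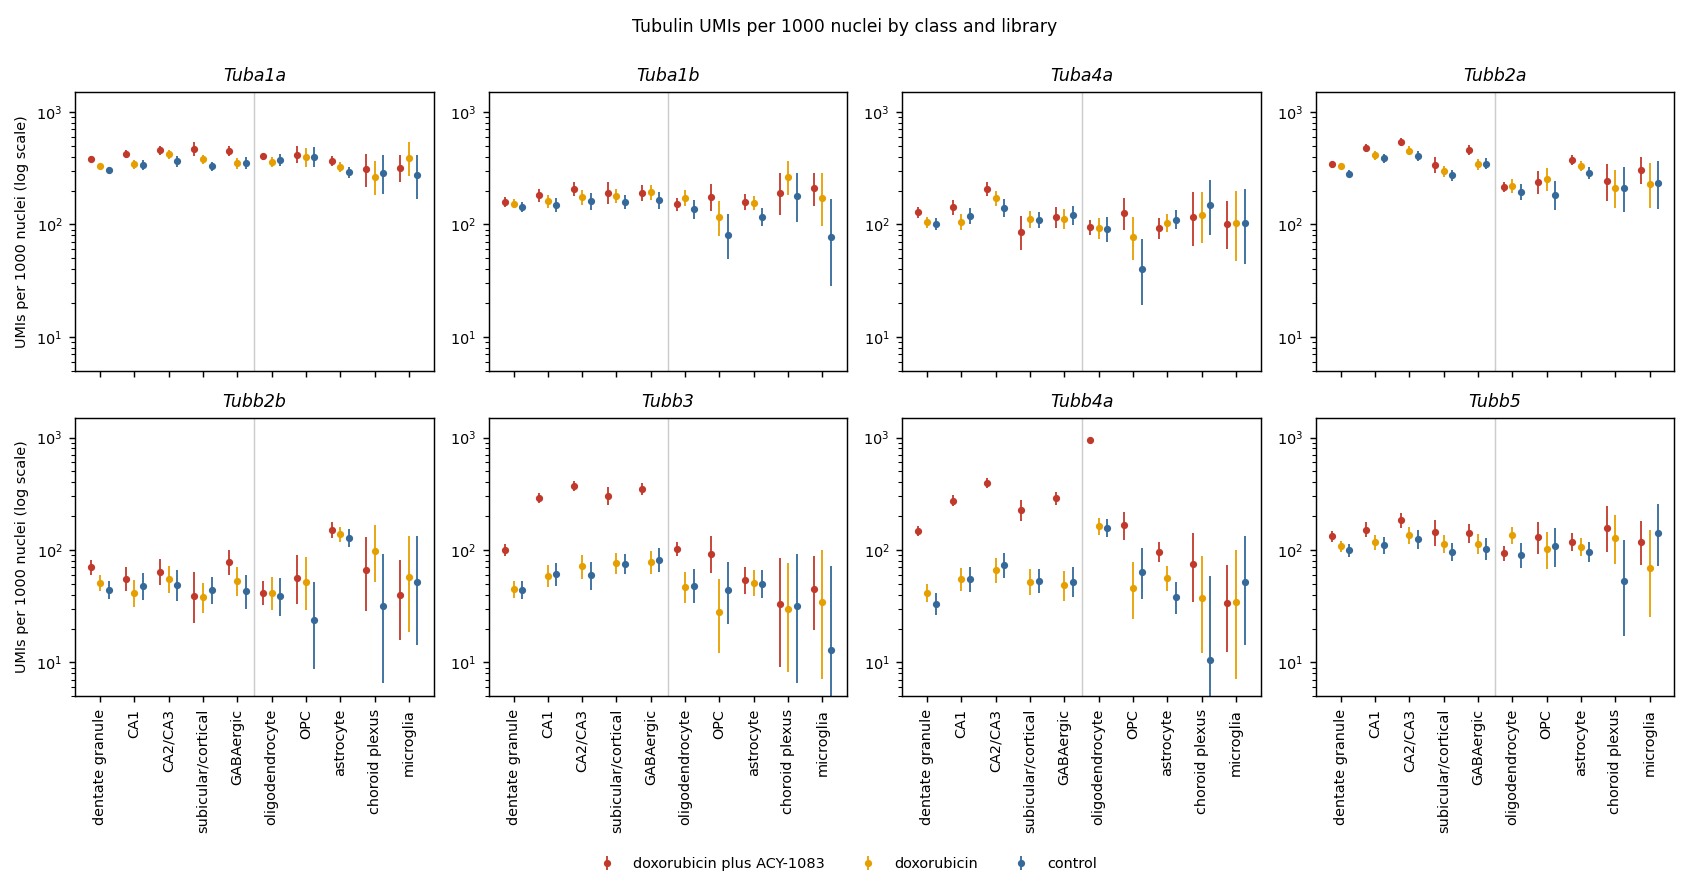
UMIs per 1000 nuclei (log axis) of each tubulin gene in 10 classes of nuclei, with doxorubicin plus ACY-1083 in red, doxorubicin in orange and control in blue. Bars are exact 95% Poisson intervals, cut at the lower end of the axis where they pass it, the grey line parts neurons from other cells, and OPC stands for oligodendrocyte precursor cells. Tuba1a keeps to 263 to 467 in every class and library, while Tubb2b is raised in astrocytes, Tubb4a in oligodendrocytes, and Tubb3 in the neurons other than granule neurons of the doxorubicin plus ACY-1083 library.

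Tubb3, the neuronal isotype, differed 2.8- and 1.87-fold between its highest and lowest compared class in the doxorubicin and control libraries. GABAergic neurons had the most, 78.3 (61.1 to 98.7) UMIs per 1000 nuclei with doxorubicin and 82.2 (64.0 to 104) in control. Dentate gyrus granule neurons had 45.0 and 44.5, and astrocytes, which should lack it, had 51 (38.9 to 65.7) and 50.2 (37.3 to 66.2), so granule neurons were not above this glial class in either. Mean UMIs per nucleus were 1540 and 1480 in granule neurons and 963 and 893 in astrocytes. In the doxorubicin plus ACY-1083 library Tubb3 was higher in the neurons other than granule neurons than in the compared glia, while granule neurons were not above oligodendrocytes. Mean UMIs per nucleus there were 6033 to 10752 in the neurons other than granule neurons. They were 4913 in granule neurons and 1381 to 2482 in the compared glia. CA2/CA3 pyramidal neurons had 371 (333 to 412), GABAergic neurons 350, subicular or cortical excitatory neurons 304 and CA1 pyramidal neurons 291, and granule neurons 99.4 (87.6 to 112), against 103 (88.0 to 119) in oligodendrocytes, 93.0 in oligodendrocyte precursor cells and 54.0 (40.5 to 70.7) in astrocytes.

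In the small classes, which rest on few nuclei, Tuba1a was mostly below the range of the compared classes. In choroid plexus epithelium Tuba1a had 308, 263 and 284 UMIs per 1000 nuclei, and in microglia 316, 391 and 273, and only the microglia of the doxorubicin library lay within that range. The intervals of these 6 values, on 21 to 56 UMIs each, all reached into it. Tubb3 rested there on 1 to 8 UMIs a library.

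Because nuclei of the classes differ in total UMIs, the same counts give another order as CPM. Mean UMIs per nucleus were highest in CA2/CA3 pyramidal neurons (10752, 3187 and 3090) and lowest among the compared classes in oligodendrocytes (1381, 706.6 and 716.0), 7.79-, 4.51- and 4.32-fold apart. The summed UMIs of the 6 short-intron tubulin genes per nucleus differed 1.66-, 1.42- and 1.5-fold over the same classes. As CPM, Tuba1a was therefore highest in oligodendrocytes, at 293, 511 and 523 CPM, and lowest in CA2/CA3 pyramidal neurons, at 42.5, 132 and 118.5 CPM, a difference of 6.91-, 3.87- and 4.41-fold. Tubb3 too was highest as CPM in oligodendrocytes, with 74.3, 66.7 and 67.5 CPM. Few neighbours in the CPM order of the classes were apart: of 7 neighbouring pairs for Tuba1a, 3, 2 and 3 had intervals that did not overlap, and for Tubb3 1, 0 and 0.

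**Figure D2:**
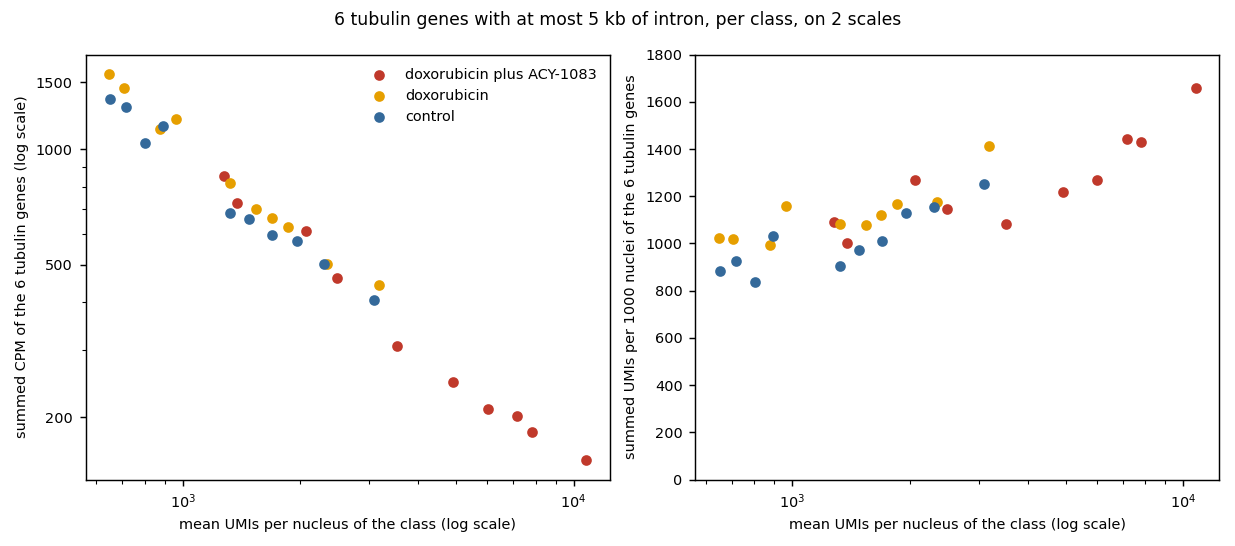
Left, summed CPM (log axis) of the 6 tubulin genes with at most 5 kb of intron against the mean UMIs per nucleus (log axis), 1 point for each of 10 classes in each library; right, the same counts as UMIs per 1000 nuclei on a linear axis. CPM is lower where nuclei hold more UMIs, and the count per nucleus stays between 836 and 1659.

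A transcript of another cell type was as even. Ttr, the thyroxine carrier made by choroid plexus epithelium, had 3738 to 4071, 4486 to 4855 and 1972.5 to 2166 UMIs per 1000 nuclei over the 8 compared classes, 1.09-, 1.08- and 1.10-fold apart, against 31692, 26985 and 20810.5 in choroid plexus epithelium. General neuron markers were detected in every class, 7 of 7 of them in glia of each library and none at 0. Over the 8 classes they differed per nucleus from 2.22-fold for Nrgn to 36.2-fold for Meg3 in the doxorubicin library, and from 2.67- to 32.7-fold for the same genes in control. The part that RNA from outside the nucleus had in the tubulin counts was not tested.

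Tuba1a gave the largest share of the alpha family in each of the 8 compared classes, from 52.4% to 62.7% with doxorubicin plus ACY-1083, 53.2% to 67.3% with doxorubicin and 54.8% to 76.9% in control. Of the alpha UMIs in granule neurons, Tuba1a gave 57.3% (54.9 to 59.6), 56.3% (53.9 to 58.7) and 55.4% (52.8 to 58.0) in the 3 libraries, Tuba1b 23.6%, 25.9% and 26.1%, and Tuba4a 19.1%, 17.8% and 18.4%. In astrocytes Tuba1a gave 59.5%, 55.8% and 56.1%, with intervals overlapping those of granule neurons. The highest shares, in oligodendrocyte precursor cells of the doxorubicin and control libraries, rest on 168 and 130 alpha UMIs; with doxorubicin plus ACY-1083 it was 58.1% of 217.

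Tubb2a led the beta family in 7 of the 8 classes of every library and in oligodendrocytes of the doxorubicin and control libraries as well. Its share ran from 36.2% in oligodendrocytes to 60.2% in CA1 pyramidal neurons with doxorubicin, and from 37.0% to 58.7% for the same classes in control. Tubb4a made up 67.5% (65.6 to 69.4) of the beta UMIs of oligodendrocytes with doxorubicin plus ACY-1083, 26.8% (23.2 to 30.7) with doxorubicin and 29.7% (25.2 to 34.5) in control, against 18.7%, 7.19% and 6.61% in granule neurons. Tubb2b made up 19.1%, 20.2% and 21.4% in astrocytes.

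**Figure D3:**
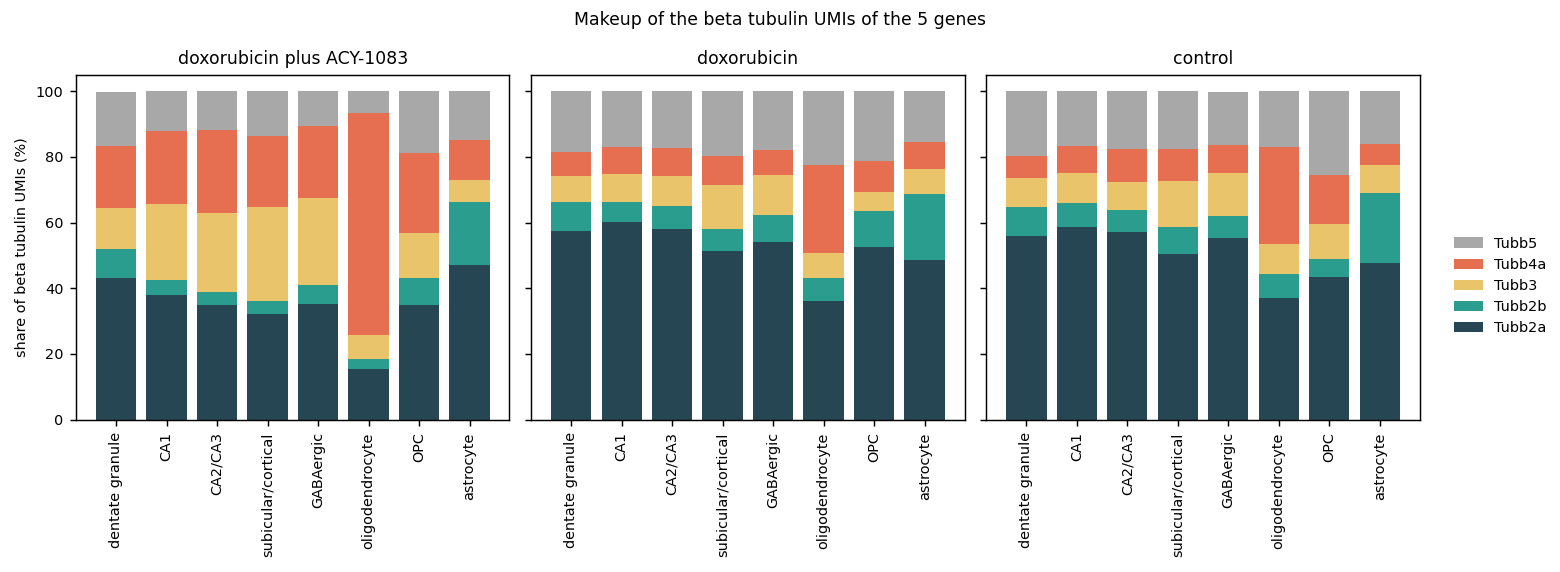
Share (%) of each of 5 beta tubulin genes in their summed UMIs, for 8 classes and, from left to right, the doxorubicin plus ACY-1083, doxorubicin and control libraries. The Tubb4a band is widest in oligodendrocytes (67.5%, 26.8% and 29.7%) and the Tubb2b band in astrocytes (19.1%, 20.2% and 21.4%).

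Over the 8 classes of the doxorubicin and control libraries together (16 points that share 2 libraries and their class totals), the genes most like each member in log2(CPM + 20) were searched among 3537 genes. Tubb4a followed the myelin gene Mag (r = 0.987). Tubb2b followed Plpp3 and Htra1, both with r = 0.98. Tuba1a was most like the Hsp90 chaperone genes Hsp90aa1 (0.978) and Hsp90ab1 (0.974), Tubb5 like Hsp90ab1 (0.982) and Hspa8 (0.977), and Tubb2a like Rps14 (0.982) and Mdh2 (0.98). Tuba1b was most like Ndufb2 (0.967) and Atp5g3 (0.958), Tuba4a like Atraid (0.957) and Lamp2 (0.954), and Tubb3 like Tecr (0.919) and Prkacb (0.911). Among the members themselves r ran from 0.465 for Tubb2b with Tubb4a to 0.971 for Tuba1a with Tubb5. For transcripts even per nucleus, CPM varies with the total UMIs of a class, so a high r need not mean shared cell types. Tuba1a differed 1.29- and 1.37-fold over the classes per nucleus but 3.87- and 4.41-fold as CPM (doxorubicin and control). How far r follows the class totals was not tested.

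Doxorubicin alone left the 8 genes close to control. Both libraries were made with the same software version, and CPM were compared. A gene in a class was read where the 2 libraries held at least 200 UMIs of it, and was called lower at a ratio of 0.8 or less and higher at the inverse of that or more. That held for 38 of the 64 pairs of gene and class: 2 were higher and 0 lower, while 5.25% of the pairs of all other genes were higher and 6.13% lower. The share of the members called, 2 of 38, is near that background. Both were Tuba1b, at 104.5 CPM with doxorubicin and 83.4 CPM in control in GABAergic neurons (ratio interval 0.996 to 1.58), and at 244 and 191 CPM in oligodendrocytes (ratio 1.28, 0.986 to 1.66). Both intervals reached below 1, and neither call remained when UMIs were scaled to those of short-intron genes in place of all genes (ratios 1.21 and 1.16).

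In whole libraries none of the 8 genes passed the fold, where 3.76% of other genes were higher and 3.2% lower. Tuba1b had 100.4 CPM with doxorubicin and 87.3 in control (ratio 1.15, 1.08 to 1.23), Tubb5 69.1 and 61.6 (1.12, 1.04 to 1.22), Tuba1a 209 and 193 (1.09, 1.04 to 1.14), and Tubb2a 196 and 182 (1.08, 1.03 to 1.13). Intervals of these 4 ratios lay above 1. Tubb4a (1.07), Tubb2b (1.06), Tuba4a (0.986) and Tubb3 (0.951, 0.853 to 1.06) had intervals that held 1. The median log2 ratio of the 8 was 0.1, beside -0.05 over 12117 other genes. In the compared classes 29 of the 38 read pairs were above a ratio of 1, beside 41.0% of the pairs of other genes.

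Class by class the differences were small. In granule neurons all 8 genes were read, with ratios from 0.97 for Tubb3 to 1.20 for Tubb4a, and Tubb2a, at 215 CPM with doxorubicin and 191 in control, had the one interval above 1 (1.13, 1.02 to 1.24). In subicular or cortical excitatory neurons Tuba1a had 225 and 194 CPM (1.16, 1.01 to 1.33). Astrocyte Tubb2b (143 and 144 CPM, ratio 0.994, 0.783 to 1.26) and oligodendrocyte Tubb4a (230 and 220 CPM, ratio 1.04, 0.812 to 1.35), the 2 class-typical transcripts, were at almost the same level in both libraries, with intervals wide enough to hold a change past the fold. Tubb5 in oligodendrocytes, with 123 and 65 UMIs, fell under the count needed, at 191 and 125 CPM (1.52, 1.12 to 2.09).

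**Figure D4:**
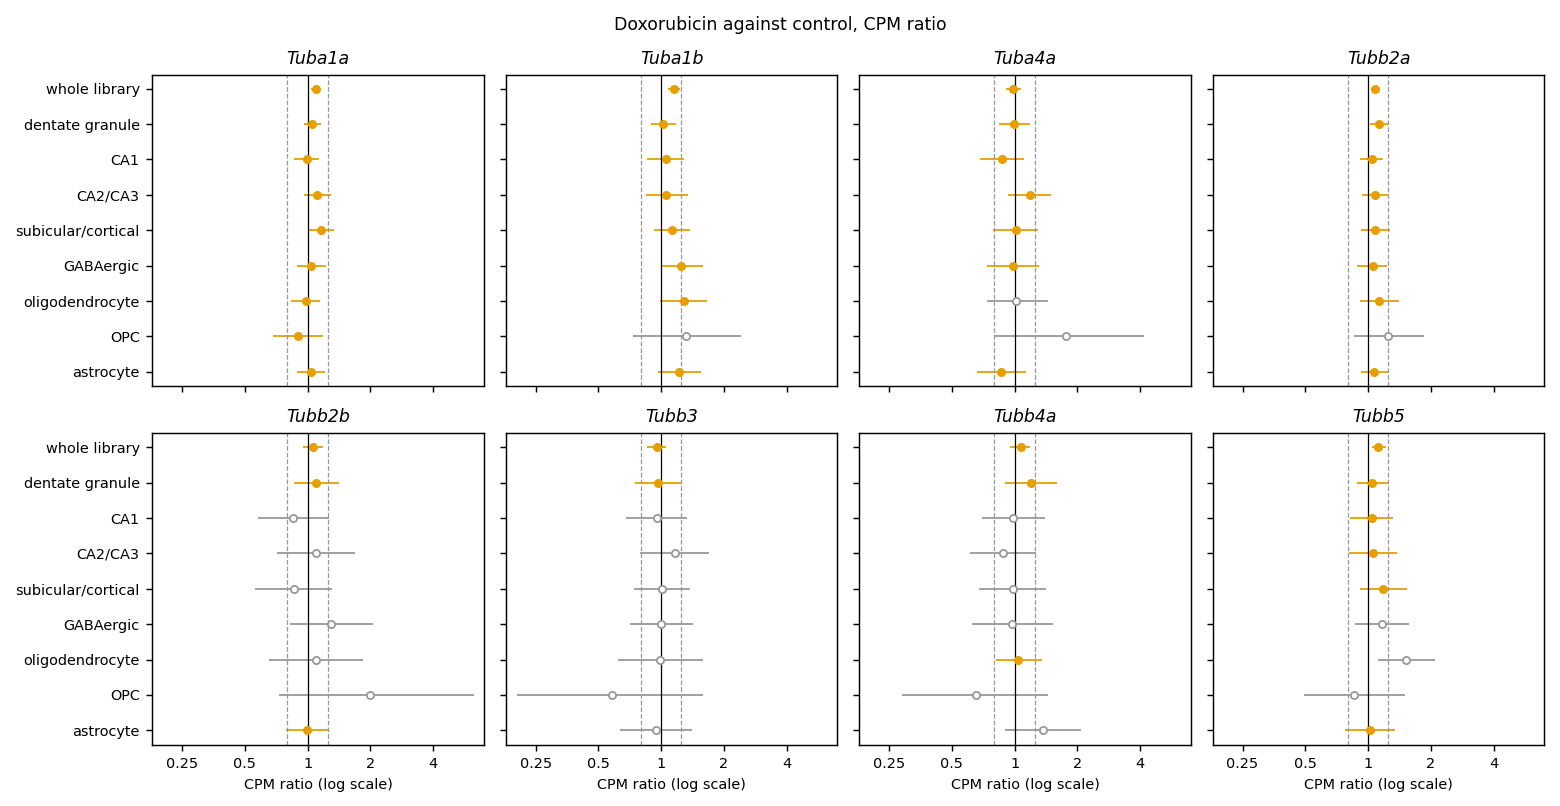
CPM ratio (log axis) of doxorubicin over control for each tubulin gene in the whole libraries and in 8 classes, with exact 95% intervals. Filled points have at least 200 UMIs over both libraries, open grey points fewer, and dashed lines mark 0.8 and its inverse. Of the filled points in classes only Tuba1b in GABAergic neurons and in oligodendrocytes (1.28) reach the upper line.

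Per nucleus, the summed UMIs of the 6 short-intron genes were 1.02 to 1.2 times as high with doxorubicin as in control over 10 classes, and the interval lay above 1 in 4 of them. Granule neurons had 1079 UMIs per 1000 nuclei with doxorubicin and 974 in control, and CA2/CA3 pyramidal neurons 1412 and 1250. The classes share the same 2 libraries and are not replicates. Ttr per nucleus was 2.14 to 2.36 times as high with doxorubicin in the 8 compared classes, and the summed CPM of markers of other classes was 1.07 to 1.71 times as high, or 0.9 to 1.16 times without Ttr. Of 83 such markers, 42 to 55 were higher with doxorubicin in each neuron class. Their part in the tubulin ratios was not tested.

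Setting the doxorubicin plus ACY-1083 library beside the others needs another scale, because its counts follow intron length. Its CPM relative to doxorubicin had a median log2 ratio of -1.44 over 643 protein-coding genes with up to 1 kb of intron and of 0.83 over 3829 genes with more than 50 kb, whereas the same medians were -0.02 and -0.07 for doxorubicin against control. The file headers name Cell Ranger 5.0.0 for that library and 4.0.0 for the other 2. The treatment, the software version and the way intronic reads were counted cannot be told apart. Tubulin UMIs were therefore divided by the UMIs of other protein-coding genes with at most 5 kb of intron, a limit that 6 of the 8 members meet and that Tubb3 and Tubb4a exceed. The result, scaled like CPM, is called short-intron CPM.

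On that scale the 6 short-intron tubulin genes were close to the doxorubicin library. In short-intron CPM, Tuba1a had 1845 with doxorubicin plus ACY-1083 and 1891 with doxorubicin (0.975, 0.936 to 1.02), Tubb2a 1667 and 1772 (0.941, 0.901 to 0.982) and Tuba1b 811 and 907 (0.894, 0.841 to 0.95). Tuba4a (0.97), Tubb5 (0.966) and Tubb2b (0.999) had intervals that held 1. Over the classes, 0 of 35 read pairs of these genes were higher and 3 lower, beside 15% higher and 9.63% lower among short-intron genes. Of the 35 ratios 8 were above 1, with a median log2 ratio of -0.13, beside 43.8% and -0.04 for short-intron genes. The 3 lower ones were Tuba1b in GABAergic neurons (619 and 896 short-intron CPM, ratio 0.691, 0.552 to 0.863) and in subicular or cortical excitatory neurons (732 and 920, ratio 0.796, 0.606 to 1.04), and Tubb5 in oligodendrocytes (967 and 1432, ratio 0.675, 0.531 to 0.861). Beside these, doxorubicin over control gave CPM ratios of 1.13 (0.922 to 1.38) for Tuba1b in the subicular or cortical neurons and of 1.52 for Tubb5 in oligodendrocytes, and Tuba1b in GABAergic neurons was one of the 2 higher pairs; the doxorubicin library is shared by both comparisons. The subicular or cortical class may hold unlike cells in these libraries, as unnamed clusters 8 and 13 shared top genes with cluster 18. In granule neurons Tubb2a (1691 and 2038, ratio 0.83, 0.756 to 0.911) and Tuba1b (781 and 939.5, ratio 0.832, 0.725 to 0.954) stood below doxorubicin without passing the fold. Per nucleus, the summed UMIs of the 6 genes were 0.981 to 1.24 times those with doxorubicin over 10 classes. They were higher in 9 of them, with a ratio of 1.0 in choroid plexus epithelium, and the interval lay above 1 in 6. On the short-intron scale most ratios lay below 1, so the direction depends on the scale. Total UMIs per nucleus were 1.95 to 3.86 times and Ttr 0.731 to 1.17 times those with doxorubicin.

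Against control, the same 6 genes had whole-library ratios from 0.948 for Tuba4a to 1.08 for Tubb5, and 0 of 34 read pairs were higher and 1 lower, beside 16.8% and 11.5% of short-intron genes in classes and 21.7% and 8.07% in whole libraries. The lower one was Tuba4a in astrocytes, with 640 short-intron CPM with doxorubicin plus ACY-1083 and 896 in control (0.715, 0.535 to 0.952). Tuba1b in GABAergic neurons was 0.836 (0.659 to 1.06) and Tubb5 in oligodendrocytes 0.931 (0.694 to 1.26), with intervals that held 1. The summed UMIs of the 6 genes per nucleus were 1.08 to 1.37 times those in control over 10 classes. They were higher in all 10, and the interval lay above 1 in 7. In the classes, 11 of the 34 short-intron ratios lay above 1, so the direction depends on the scale here too. Total UMIs per nucleus were 1.93 to 3.66 times and Ttr 1.52 to 1.95 times those in control.

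Tubb3 and Tubb4a departed from the other members. In short-intron CPM Tubb3 had 839 with doxorubicin plus ACY-1083 and 307 with doxorubicin (2.73, 2.51 to 2.98), and Tubb4a 1447 and 322 (4.49, 4.15 to 4.87). These whole-library ratios also hold the makeup of the libraries. Oligodendrocytes held 1628 of the 3826 Tubb4a UMIs with doxorubicin plus ACY-1083 and 148 of 723 with doxorubicin. They were higher in 11 of 11 read pairs, beside 43.9% higher and 3.31% lower among pairs of other genes with over 5 and up to 10 kb of intron. Reading rests on the UMIs of both libraries summed, so a pair can be read only through the library where the gene is high. In doxorubicin against control 3 pairs of these 2 genes were read. The count of 11 therefore depends in part on the reading rule and is no test of direction. Among 1495 such genes in whole libraries 55.7% were higher, and 89.1% had a smaller log2 ratio than Tubb3 and 95% a smaller one than Tubb4a. As plain CPM, Tubb3 differed little (37.2 with doxorubicin plus ACY-1083 and 34.0 with doxorubicin, ratio 1.1) and Tubb4a was higher (64.3 and 35.7, ratio 1.8).

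The excess of both genes was unequal over the classes. Tubb3 had a ratio of 3.77 (2.94 to 4.89) in CA1 and 3.85 (2.97 to 5.06) in CA2/CA3 pyramidal neurons, 3.13 in GABAergic neurons, 2.97 in subicular or cortical excitatory neurons, 2.11 in oligodendrocytes and 1.77 (1.43 to 2.21) in granule neurons. The last turned round as CPM, at 20.2 with doxorubicin plus ACY-1083 and 29.2 with doxorubicin (0.693, 0.558 to 0.864), and was -0.13 on the log2 scale with TMM factors. In astrocytes it was 0.985 (0.667 to 1.45) on 53 and 60 UMIs, too few to be read. Tubb4a had its largest ratio in oligodendrocytes, at 9718 short-intron CPM with doxorubicin plus ACY-1083 and 1723 with doxorubicin (5.64, 4.76 to 6.72), above all 179 genes of that intron length read there. It had 4.42 in CA2/CA3 and 3.82 in CA1 pyramidal neurons, 4.15 in GABAergic neurons and 2.88 in granule neurons. Against control, a comparison that shares the doxorubicin plus ACY-1083 library, 11 of 11 read pairs were higher too, beside 45.1% higher and 3.87% lower in classes and 54.2% higher in whole libraries among genes of that intron length. That count depends on the reading rule in the same way. There Tubb4a had 5.33 (4.41 to 6.51) in oligodendrocytes and Tubb3 4.48 (3.32 to 6.16) in CA2/CA3 pyramidal neurons, and in whole libraries Tubb3 had 2.58 (2.36 to 2.82) and Tubb4a 4.74 (4.35 to 5.17).

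**Figure D5:**
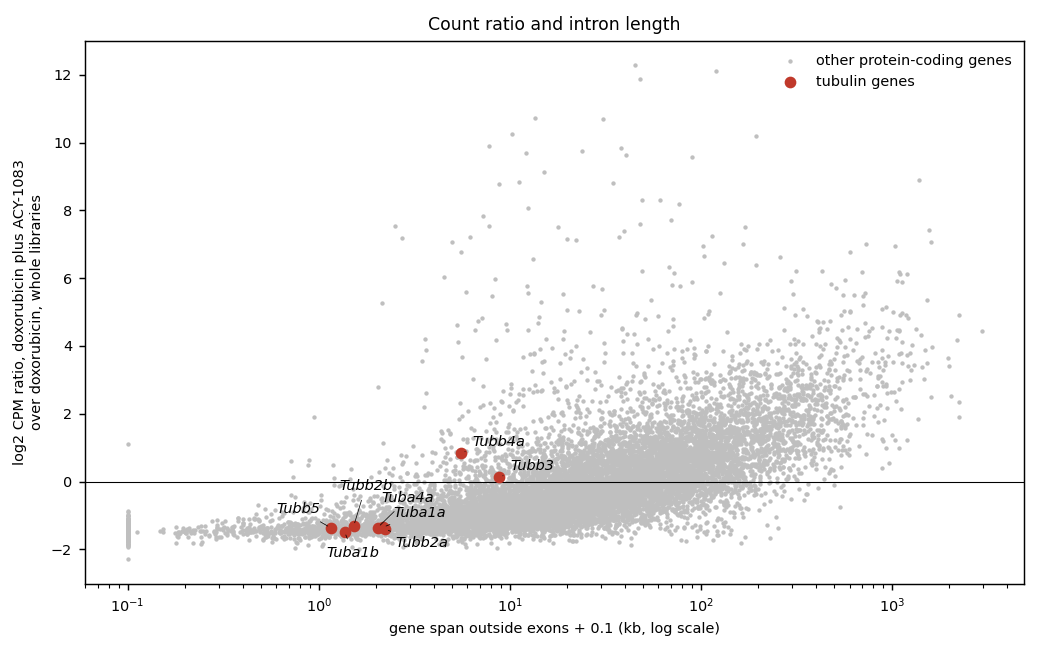
Log2 CPM ratio of doxorubicin plus ACY-1083 over doxorubicin in whole libraries against intron length (kb, log axis), 1 point for each protein-coding gene with at least 200 UMIs, tubulin genes in red. The 6 short-intron tubulin genes lie together, at CPM ratios of 0.359 to 0.401, among the other genes of their length, and Tubb3 (8.72 kb) and Tubb4a (5.49 kb) lie higher.

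Most other genes of the tubulin pathway did not pass the fold with doxorubicin, and those that did were higher. Lists of other tubulin genes, folding factors, tail-modifying enzymes, acetylation enzymes and mRNA autoregulation genes held 43 genes with at least 200 UMIs, of which 5 were higher and 0 lower in whole libraries, beside 3.76% higher and 3.2% lower among all other genes. The median log2 ratio of the 43 was 0.03, beside -0.05. Of 12 other tubulin genes, 4 were read and 2 were higher: Tubd1, encoding the centriolar delta tubulin, with 18.8 CPM with doxorubicin and 13.7 in control (1.37, 1.17 to 1.62), and Tubg1, encoding the nucleating gamma tubulin, with 11.1 and 8.37 (1.32, 1.07 to 1.63). Of 21 folding genes, all read, Tbca, a cofactor that binds beta tubulin, had 40.2 and 28.3 CPM (1.42, 1.27 to 1.59) and Pfdn5, a prefoldin subunit, 91.5 and 71.5 (1.28, 1.19 to 1.37), and the list median was 0.09 on the log2 scale. Of 13 tail enzymes read, Agbl3, a deglutamylase, was higher at 15.4 and 11.8 CPM (1.31, 1.09 to 1.56), and Vash1, a detyrosinating carboxypeptidase, stood at 8.19 and 10.1 (0.813, 0.655 to 1.01).

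The acetylation enzymes and the autoregulation genes did not pass the fold. The acetyltransferase gene Atat1 had 55.2 CPM with doxorubicin and 48.4 in control (ratio 1.14, lower bound 1.04), and Hdac6, the target of the inhibitor, 59.4 and 65.0 (0.914, 0.842 to 0.991). Ttc5 had 61.3 and 63.2 CPM (0.97) and its partner gene Scaper 65.9 and 71.0 (0.929, 0.86 to 1.0). Most genes of these lists have longer introns than 5 kb. Of the read ones that do not, 2 of 3 other tubulin genes, 2 of 5 folding genes and 1 of 1 tail enzyme were higher with doxorubicin plus ACY-1083 than with doxorubicin in short-intron CPM, and 0 lower, beside 21.1% higher and 4.55% lower among short-intron genes in whole libraries.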

How the data were processed

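The files hold raw UMI counts for each gene in each barcode, as deposited by the authors and without scaling. In the file headers, version 5.0.0 of Cell Ranger stands for doxorubicin plus ACY-1083 and version 4.0.0 for doxorubicin and for control; the submitters' processing notes give 6.0.0 and mm10. No source used here states whether intronic reads were counted. The members, lists and call rules were chosen with earlier results of these data known. Genes named are all members, the 2 read genes of each list with the most extreme ratio of doxorubicin over control, and the 2 genes most like each member, of which 1 is not reported here.

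Nuclei with at least 300 genes and under 5% mitochondrial UMIs were kept. Scrublet (scanpy 1.11.5) marked almost no doublets at its automatic threshold, so scores above 0.25 were removed (344, 573 and 452 barcodes of the doxorubicin plus ACY-1083, doxorubicin and control libraries, or 2.82%, 4.69% and 4.14%). All libraries were clustered together on 2000 variable genes (Pearson residuals, tubulin and mitochondrial genes left out) with 30 principal components, 15 neighbours and Leiden resolution 1.5. Each cluster was scored by the mean log2 fold of a class's markers against the rest of its main library, over 3 or more detected ones. It was named at a score of 0.7 with a lead of 0.2 where no other class had more markers among its top 10 genes, and a cluster of low UMIs (median under 1/3 of its library's) with no marker of its own there stayed unnamed. Oligodendrocyte clusters whose median UMIs exceeded that of their library's chief cluster more than 3 times were left out of the class. These settings and the doublet score were chosen after cluster sizes and marker genes, not tubulin counts, had been seen. Clusters 6, 8, 9, 11 and 13 (457, 444, 150, 393 and 290 nuclei, with doxorubicin plus ACY-1083) and 27, 29 and 32 (715, 323 and 185 nuclei with doxorubicin, 764, 194 and 223 in control) stayed unnamed, and names rebuilt in this way may differ from the study's. Endothelial cells (4, 662 and 486 nuclei with doxorubicin plus ACY-1083, doxorubicin and in control) were named but not compared. The same holds for Cajal-Retzius cells (744, 0 and 0) and immature neurons (183, 0 and 0).

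UMIs were summed by class and library. CPM divides by the total, short-intron CPM by the UMIs of 6502 protein-coding genes with at most 5 kb of intron, without tubulin, ribosomal protein and mitochondrial genes. Ratios have Clopper-Pearson and levels Poisson intervals (95%), and 0.5 counts were added before log2. The counts per nucleus, the split of members at 5 kb and the background of genes with 5 to 10 kb of intron were added after values had been seen. Gene models were GENCODE vM21 on GRCm38 (32235 of 32285 genes matched). The ratio script was checked on simulated counts. TMM factors (edgeR 4.0.16) served as an alternative scaling.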

Additional observations from a re-analysis of the deposited data

How the results depend on the processing

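No paired analysis was possible because each group has 1 pooled library, and no replicate could be left out. Of the members in doxorubicin against control, 2 of 38 read pairs passed the fold. The count was 0 with short-intron scaling, with at least 600 genes per nucleus, with nuclei thinned to 1000 UMIs or at 1.5-fold, 6 at a minimum of 50 UMIs, and 1 with tubulin genes among the variable genes or with each library clustered on its own. In doxorubicin plus ACY-1083 against doxorubicin, 14 of 46 pairs passed, and the count was 44 with TMM scaling, 42 with CPM scaling, 4 with thinned nuclei (18 pairs read), 22 at 50 UMIs and 22 with a short-intron limit of 10 kb. Against control 12 of 45 passed, and 43 did with TMM scaling, 42 with CPM scaling, 7 with thinned nuclei (15 read) and 20 at 50 UMIs. The TMM and CPM totals hold long-intron genes, and fewer pairs were read after thinning. Why the counts moved was not tested for any setting. The median log2 ratio of the members, doxorubicin plus ACY-1083 against doxorubicin, was -0.04 and became -1.08 (TMM), -1.36 (CPM), 0.07 (600 genes), 0.35 (thinned), 0.14 (mean over nuclei), 0.07 (limit of 2 kb) and -0.17 (limit of 10 kb). Tubb3 in granule neurons changed direction, to a log2 ratio of -0.13 (TMM) and -0.53 (CPM) against doxorubicin and of -0.12 and -0.58 against control. The median against control of doxorubicin alone did not leave its counting interval under any alternative run. At Leiden resolution 0.5 the CA1 and CA2/CA3 classes held no nuclei of the doxorubicin and control libraries, and 160 of 160 other levels stayed within their intervals. Shares moved in 24 cases and stayed in 136 with thinned nuclei, and levels moved in 5 and stayed in 187 with doublets kept. Depth limits most pairs of Tubb2b, Tubb3 and Tubb4a, which fell under 200 UMIs in doxorubicin against control.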
